A study of Homo sapiens with 12 samples.

Results

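Fc receptors bind the constant part of antibodies, and the 10 genes described here cover the receptors for IgG that microglia carry and the enzymes that pass on their signal. They were found in the deposited table by gene name, FCGR1A, FCGR2A, FCGR2B, FCGR3A, FCER1G, FCGRT, SYK, LYN, PTPN6 and BTK, each with 1 row among 62703 genes, and all 10 were among the 17577 genes that passed the filter on low counts. Bulk RNA-seq covered iMGLs, microglia-like cells made from WTC11, an established line of human induced pluripotent stem cells. WT iMGLs came from 3 isogenic clones of the edited line (J, K and L, whose data columns are abbreviated as scrambled controls), and LACTB KO iMGLs came from 3 clones (A, B and C) in which CRISPR cutting and end joining had left frameshift or stop indels in both alleles of LACTB, the gene of a mitochondrial serine protease. Each clone was taken through 2 differentiations, giving 12 libraries, which are named below by clone and differentiation (J2 is WT clone J, differentiation 2). All cultures passed through hematopoietic precursors and grew in IL34, TGFβ and MCSF, received CX3CL1 and CD200 from day 24, were collected on day 27 by the sample labels, and had no further treatment.

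Antibody on a particle clusters the activating receptors, whose ITAM motif, in the receptor tail (FcγRIIa) or in the shared γ chain (FcγRI and FcγRIIIa), is phosphorylated by Src-family kinases such as LYN and then recruits the kinase SYK. BTK acts downstream of SYK on phospholipase C, whereas FcγRIIb carries an ITIM motif, a docking site for phosphatases. PTPN6 (SHP-1) is a phosphatase that many inhibitory receptors recruit in this way. FCGRT encodes the neonatal Fc receptor FcRn, which binds IgG in acidic endosomes and returns it to the surface. In microglia these genes are known for the uptake of antibody-coated material, including amyloid bound by therapeutic antibodies.

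The Fcγ receptor genes descend from duplications, so their sequence bears on how reads can be assigned. FCGR2A, FCGR3A, FCGR2C, FCGR3B and FCGR2B lie side by side on chromosome 1, from 161505430 to 161678654 of GRCh38, a stretch of 173 kb, and FCER1G lies on the same arm from 161215234 to 161220699. FCGR1A lies at 149782671 to 149791675 of chromosome 1, while FCGRT is on chromosome 19, SYK on 9, LYN on 8, PTPN6 on 12 and BTK on X. Of the stretches of 150 bases (the read length) in the annotated transcripts, 26.7% of those of FCGR1A, 13.6% of those of FCGR2A, 9.08% of those of FCGR2B and 10.4% of those of FCGR3A were also found in the transcripts of another gene. For FCGR1A these were the pseudogenes FCGR1BP (20.9%) and FCGR1CP (7.58%), for FCGR2B mainly FCGR2C (8.86%), for FCGR3A an overlapping gene without a symbol (8.99%) and FCGR3B (2.74%), and for FCGR2A mainly an overlapping gene without a symbol (11.1%). For FCER1G, FCGRT, SYK, LYN, PTPN6 and BTK the share was 0%. The counting tool and its use of strand are not given in the sources used here, so the split of reads within these 4 receptor genes and their copies is uncertain.

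The promoter sequences were also examined. RefSeq windows of 300 bases on GRCh38.p14 (250 bases before to 50 after an annotated start) were matched by symbol for 9 of the 10 genes, and that of LYN was not used. The windows of FCGR1A and FCGR2A are shown because both hold the same run of 20 bases, in capitals, beginning 52 and 51 bases before the start, which occurs in 2 of all 34796 windows, these 2. They lie at chr1:149782444-149782743 and chr1:161505207-161505506, both on the plus strand. The window of FCGR2B at chr1:161662893-161663192 (plus strand) is shown for the inhibitory receptor, with capitals on a match to GAGGAAG, the core letters of sites bound by PU.1, the transcription factor that defines the myeloid lineage.
FCGR1A: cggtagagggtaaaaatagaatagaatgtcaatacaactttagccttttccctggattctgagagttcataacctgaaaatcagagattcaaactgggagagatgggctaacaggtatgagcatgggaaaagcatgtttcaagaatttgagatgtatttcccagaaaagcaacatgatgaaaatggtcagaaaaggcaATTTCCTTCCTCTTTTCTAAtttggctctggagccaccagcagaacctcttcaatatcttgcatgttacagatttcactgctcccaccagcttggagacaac
FCGR2A: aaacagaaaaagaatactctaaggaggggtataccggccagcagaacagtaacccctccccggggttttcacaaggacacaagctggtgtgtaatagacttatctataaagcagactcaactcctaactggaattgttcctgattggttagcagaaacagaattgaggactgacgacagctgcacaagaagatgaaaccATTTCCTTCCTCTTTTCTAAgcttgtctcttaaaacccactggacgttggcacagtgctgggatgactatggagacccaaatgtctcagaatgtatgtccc
FCGR2B: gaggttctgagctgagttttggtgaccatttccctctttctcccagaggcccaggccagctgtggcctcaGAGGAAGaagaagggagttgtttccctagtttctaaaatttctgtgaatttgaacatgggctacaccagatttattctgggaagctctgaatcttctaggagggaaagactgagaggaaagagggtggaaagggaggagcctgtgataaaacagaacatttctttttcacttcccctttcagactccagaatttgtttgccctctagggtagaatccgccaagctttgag
GAGGAAG, searched on both strands (CTTCCTC on the other), was found in 13.6% of all windows. It was found in 7 of the 9 genes, counting any of their 18 windows, of which 8 held it, and in 16.1% of all 27305 genes with a window. A gene with more windows has more chances of a match, which the share per gene does not account for. The matches in FCGR1A and FCGR2A lie inside the shared run. A match of letters is a description and does not show a bound site.

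Estimated counts summed to between 24153233 and 28406943 per library. Levels are given in CPM (counts scaled by library size after TMM), and genes are compared with each other only per length. LACTB itself had between 69.5 and 97.7 CPM in the WT libraries, between 7.57 and 9.77 CPM in clones A and C and 44.8 and 51.4 CPM in clone B (log2 fold change -1.87, edgeR adjusted p = 0.735; exact two-sided permutation p = 0.1 over 3 clones against 3, the smallest this design allows). Transcripts of the 20 stromal markers, such as collagens, summed to between 158 and 15713 CPM in WT and between 138 and 2324 CPM in LACTB KO libraries, highest in J1 and K2. All 18 stromal markers that could be tested were lower in LACTB KO, 16 of them with an unadjusted p under 0.05. Markers of microglia and macrophages were above 3 counts in every library for 15 of 15 genes and summed to between 7405 and 9643 CPM in WT and between 7355 and 8133 CPM in LACTB KO. TMEM119 was the lowest of them, between 0.310 and 1.89 CPM in 11 libraries and 10.7 CPM in J2. Of the other cell types that carry Fc receptors, MPO, ELANE, PRTN3 and CEACAM8 of granulocytes, TPSAB1, TPSB2, CPA3, MS4A2 and HDC of mast cells and basophils, MS4A1, CD79B, CR2 and BLK of B cells, and GNLY and PRF1 of NK cells had at most 3 counts in every library, which are 4 of 8, 5 of 8, 4 of 7 and 2 of 8 genes of these lists. Others of them were measured, such as CSF3R (80.2 to 143 CPM), FCER1A (14.4 to 255 CPM), NCAM1 (1.02 to 30.7 CPM) and KIT (1.71 to 27.7 CPM). In bulk samples, fewer cells of a type and less RNA per cell cannot be told apart.

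Levels were ranked by the WT mean of counts per kilobase of exon, scaled to the same total in each library (as TPM). The length was that of all annotated exons of a gene joined, from 964 bases (FCER1G) to 7817 bases (BTK). It can exceed the length of the transcripts present, so ranks, gaps and ratios per length depend on this choice. The γ chain, FCGRT, PTPN6, SYK and LYN ranked above the 4 Fcγ receptors. FCER1G, the γ chain, stood first with 820 ± 130 (SD, n = 6 libraries) in WT and 794 ± 106 in LACTB KO. FCGRT followed with 620 ± 92.7 in WT and 571 ± 24.7 in LACTB KO, and FCER1G exceeded it in each of the 12 libraries although their WT ranges overlapped. PTPN6 (298 ± 57.4 in WT), SYK (279 ± 32.8) and LYN (266 ± 33.7) came next, with WT ranges that overlapped from one to the next, so their order was within the spread between libraries. FCGR1A had 186 ± 71.2 and FCGR2A 76.4 ± 14.1 in WT, with no overlap between them. The WT ranges of LYN and FCGR1A overlapped, and in J2 FCGR1A (276) exceeded LYN (261), SYK (233) and PTPN6 (221). BTK (63.5 ± 8.28) overlapped with FCGR2A above it and with FCGR3A (58.9 ± 58.7) below it. FCGR2B was last, with 6.53 ± 7.58 in WT and 1.99 ± 0.732 in LACTB KO. Among all genes with a length, FCER1G ranked 114 by its WT mean and FCGR2B 10169. Per length, FCER1G was 3.37 to 7.08 times FCGR1A in the WT libraries and 3.54 to 7.55 times in the LACTB KO libraries.

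**Figure D1:**
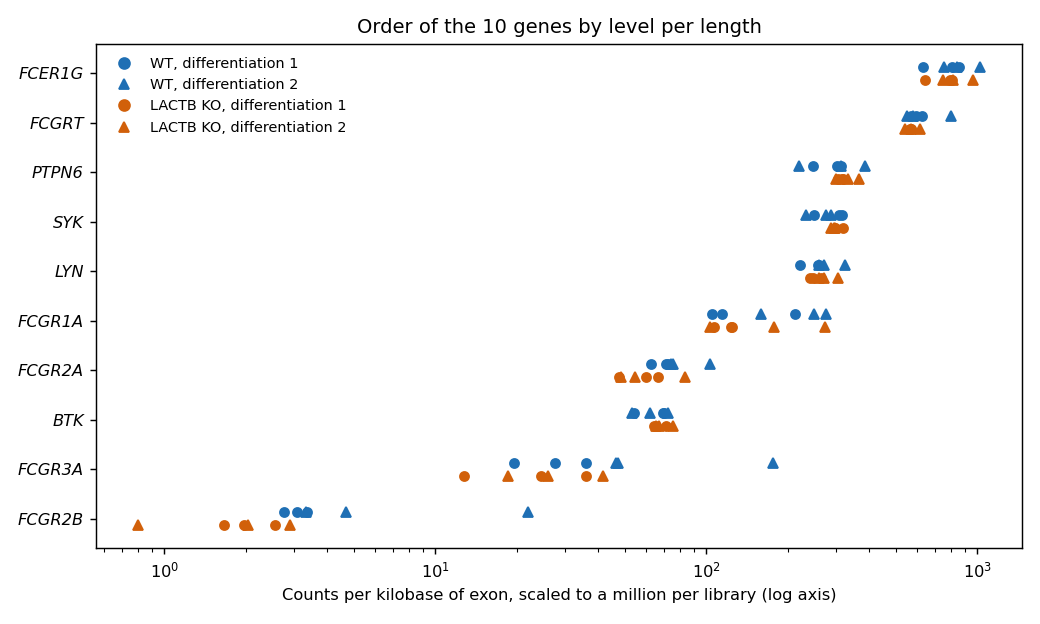
Levels of the 10 genes per length (horizontal axis, counts per kilobase of exon scaled as TPM, log axis), with 1 point per library, WT above and LACTB KO below in each row, and circles and triangles for differentiations 1 and 2. FCER1G leads at 631 to 1026 over all libraries, and FCGR2B and FCGR3A each have 1 WT library far to the right of the rest.

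FCGR2B encodes FcγRIIb, the inhibitory receptor of the family, and was the one gene of the 10 whose libraries did not overlap between genotypes. In WT iMGLs it had 4.61 CPM in J1, 40.0 in J2, 5.68 in K1, 7.34 in K2, 4.85 in L1 and 5.53 in L2. In LACTB KO iMGLs it had 4.39 CPM in A1, 1.38 in A2, 2.93 in B1, 4.46 in B2, 3.10 in C1 and 3.35 in C2. All 6 LACTB KO libraries lay below all 6 WT libraries, which held for 0.176% of the 17577 genes tested (31 genes), although the gap between the lowest WT library and the highest LACTB KO library was small. These levels rest on 125 to 1075 counts in WT and 37 to 127 counts in LACTB KO. The log2 fold change of LACTB KO against WT was -1.81 (standard error 0.558, unadjusted p = 0.0148, edgeR adjusted p = 0.726), so the difference did not pass the threshold after adjustment. DESeq2 on the same clone sums gave an adjusted p of 0.0315, and the adjusted p ranged from 0.0315 to 1 over 18 alternatives, all of them with a lower level in LACTB KO. Without J2 the log2 fold change was -0.75 (standard error 0.191, unadjusted p = 0.00561, adjusted p = 0.711), with a WT mean of 5.60 ± 1.07 CPM (n = 5) against 3.27 ± 1.13 CPM (n = 6) in LACTB KO. In the fit without J2, clone J was J1 alone, the library with the highest stromal sum, and the differentiations were no longer balanced between genotypes. With the counts of FCGR2C added to those of FCGR2B, the log2 fold change was -1.11 (adjusted p = 0.725). FCGR2C alone, between 3.69 and 8.47 CPM in WT and between 2.05 and 6.50 CPM in LACTB KO, had a log2 fold change of -0.25 (unadjusted p = 0.45), and its groups overlapped.

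FCGR3A encodes FcγRIIIa, an activating receptor that depends on the γ chain. It had 34.5 CPM in J1, 240 in J2, 45.3 in K1, 54.9 in K2, 22.8 in L1 and 57.2 in L2, and 31.4 CPM in A1, 33.3 in A2, 16.8 in B1, 47.5 in B2, 42.2 in C1 and 22.7 in C2. J2 was 4.19 times the next highest library, and the other WT libraries overlapped with those of LACTB KO. Summed per clone, the 3 LACTB KO clones (32.3 to 32.9 CPM) lay below the 3 WT clones (39.2 to 135 CPM). The log2 fold change was -1.22 (standard error 0.449, unadjusted p = 0.0305, edgeR adjusted p = 0.746), and -0.35 (standard error 0.124, unadjusted p = 0.0252, adjusted p = 0.731) without J2. Its near copy FCGR3B, a receptor of neutrophils, had at most 6 counts in a library, so the sum of both gave the same log2 fold change of -1.22.

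FCGR2A encodes FcγRIIa, the activating receptor with its own ITAM. WT libraries ranged from 79.9 to 154 CPM with a median of 97.8, and LACTB KO libraries from 68.1 to 105 CPM with a median of 78.6. The groups overlapped by library but not by clone, with 75.3 to 87.6 CPM in the LACTB KO clones and 89.9 to 125 CPM in the WT clones. The log2 fold change was -0.38 (standard error 0.137, unadjusted p = 0.0296, edgeR adjusted p = 0.746), and -0.24 (standard error 0.077, unadjusted p = 0.0157) without J2. Per length, FCGR2A was 4.72 times FCGR2B in J2 and between 16.1 and 26.1 times in the 5 other WT libraries, against 23.5 to 60.4 times in LACTB KO, so the balance of the activating and the inhibitory receptor differed most between J2 and the remaining libraries.

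FCGR1A encodes FcγRI, the high-affinity receptor for IgG. It had 115 CPM in J1, 163 in J2, 62.6 in K1, 127 in K2, 53.2 in L1 and 85.6 in L2, and 69.3 CPM in A1, 99.1 in A2, 60.9 in B1, 136 in B2, 62.5 in C1 and 55.1 in C2. The groups overlapped (log2 fold change -0.32, standard error 0.287, edgeR adjusted p = 0.878). FCGR1BP and FCGR1CP, which share stretches with it, had 10.7 to 37.9 CPM and 5.39 to 20.3 CPM over the 12 libraries. FCGR1A stayed at 9.96 to 14.3 times FCGR1BP per length in every library, and with the counts of the 3 genes summed the log2 fold change was -0.35 (adjusted p = 0.878).

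FCER1G, the γ chain that FcγRI and FcγRIIIa need for signal and surface level, ranged from 144 to 271 CPM in WT (median 194) and from 146 to 215 CPM in LACTB KO (median 200). The log2 fold change was -0.06 (standard error 0.164, edgeR adjusted p = 0.945), and J2 was again the highest library. FCGRT had 542 to 889 CPM in WT (median 581) and 541 to 607 CPM in LACTB KO (median 585), and its log2 fold change was -0.14 (standard error 0.126, adjusted p = 0.879). Without J2 its WT mean was 580 ± 42.7 CPM (SD, n = 5) against 577 ± 27.9 CPM (n = 6) in LACTB KO. B2M, the light chain that FcRn needs, differed by -0.10 on the log2 scale (standard error 0.129, adjusted p = 0.908).

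The kinases and the phosphatase were close in all libraries. SYK, the kinase that binds phosphorylated ITAMs, had 327 to 419 CPM in WT (median 358) and 359 to 413 CPM in LACTB KO (median 390), and the log2 fold change was 0.10 (standard error 0.077, edgeR adjusted p = 0.878). Summed per clone, the 3 LACTB KO clones (388 to 393 CPM) lay above the 3 WT clones (327 to 379 CPM), which 5.06% of the genes tested also did. LYN, which can phosphorylate both ITAMs and ITIMs, had 343 to 472 CPM in WT (median 414) and 385 to 435 CPM in LACTB KO (median 404), and the log2 fold change was -0.02 (standard error 0.0739, adjusted p = 0.967). PTPN6 had 302 to 453 CPM in WT (median 379) and 363 to 422 CPM in LACTB KO (median 412), and the log2 fold change was 0.12 (standard error 0.119, adjusted p = 0.883). BTK had 107 to 141 CPM in WT (median 121) and 121 to 145 CPM in LACTB KO (median 133), and the log2 fold change was 0.09 (standard error 0.0847, adjusted p = 0.879). For all 4 the groups overlapped by library, and their highest library was at most 1.5 times the lowest within a genotype. In WT this was 10.5 times for FCGR3A and 8.67 times for FCGR2B, and 2.51 and 1.59 times without J2.

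**Figure D2:**
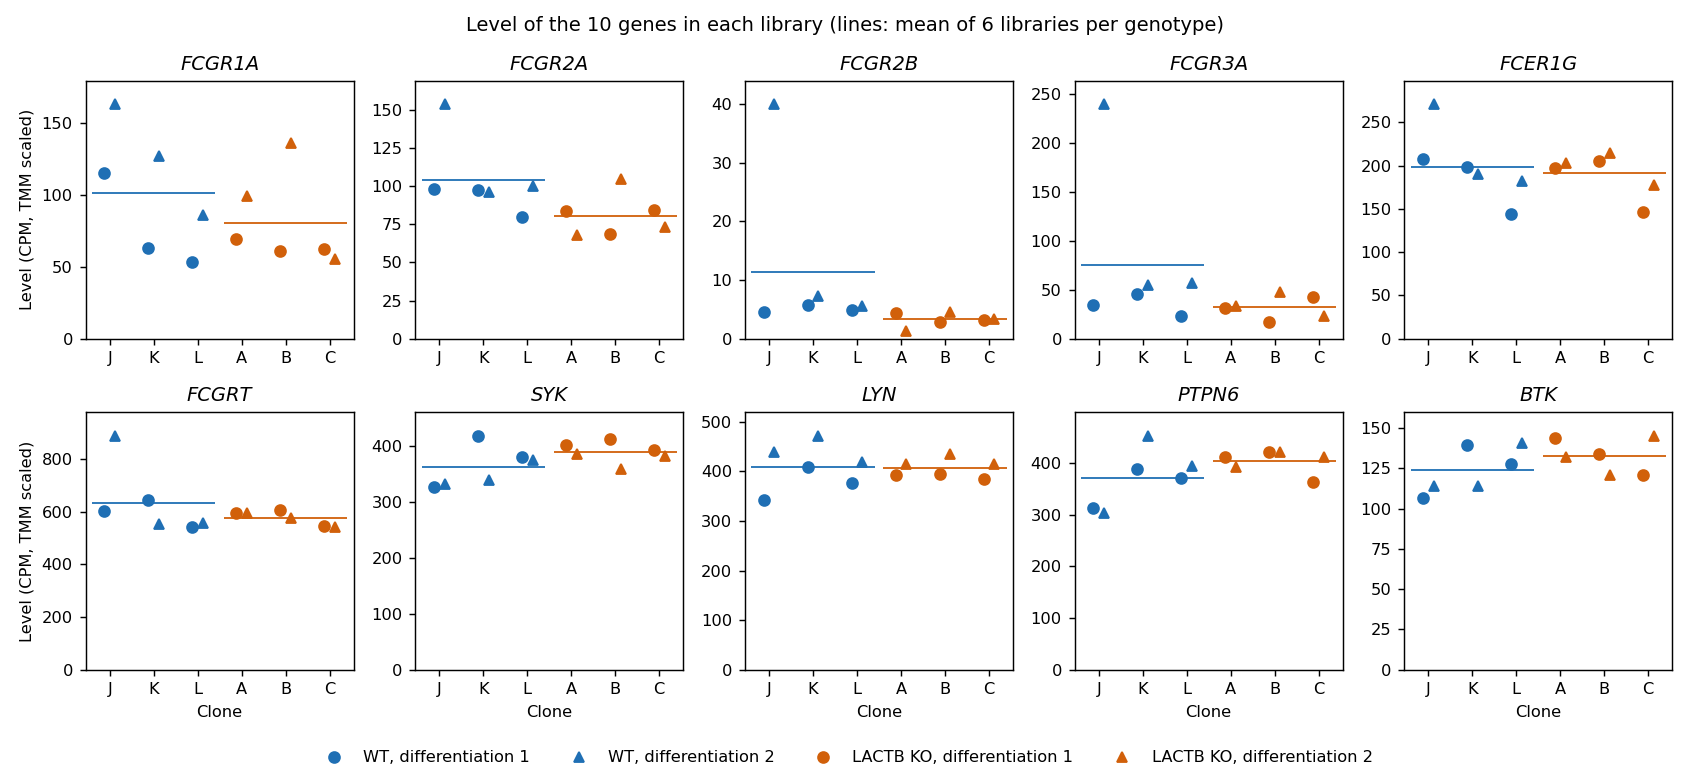
Level of each of the 10 genes (vertical axes, CPM, each starting at 0) by clone, with circles for differentiation 1, triangles for differentiation 2, and a line at the mean of the 6 libraries of a genotype. FCGR2B and FCGR3A are set apart by J2 at 40.0 and 240 CPM, while SYK, LYN, PTPN6 and BTK lie at similar levels in both genotypes.

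Across the 10 genes, 7 had a lower and 3 a higher fitted level in LACTB KO, the median being -0.10 on the log2 scale, beside 0.01 over all genes tested. An adjusted p under 0.05 was reached by 0 of the 10 genes and by 0% of the 17577 genes (edgeR). An unadjusted p under 0.05 was reached by 3 of the 10, FCGR2A, FCGR2B and FCGR3A, all lower in LACTB KO, against 6.36% of all genes, or 5.56% in that direction. By clone, the same 3 genes lay below every WT clone in all 3 LACTB KO clones, which 5.99% of all genes did. These 3 genes lie in the same cluster on chromosome 1, share stretches with copies there, and were all highest in J2, so they are not independent of each other. The stromal markers, lower in LACTB KO as well, had their highest sums in J1 and K2, and summed to 1257 CPM in J2 (the fifth highest). Leaving out J1 and K2 kept J2 alone for WT clone J and K1 alone for clone K, so J2 weighed more in that fit. Its log2 fold changes were -2.38 for FCGR2B, -1.73 for FCGR3A and -0.50 for FCGR2A (edgeR unadjusted p = 0.0237, 0.0417 and 0.0491). With limma voom and clone as random effect they were -1.42, -0.93 and -0.37 (unadjusted p = 0.03, 0.0597 and 0.0305), and with the stromal level added as a covariate to that fit they were -1.40, -0.96 and -0.32 (unadjusted p = 0.0641, 0.0965 and 0.0956). The part of the stromal transcripts in these differences was not tested further.

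**Figure D3:**
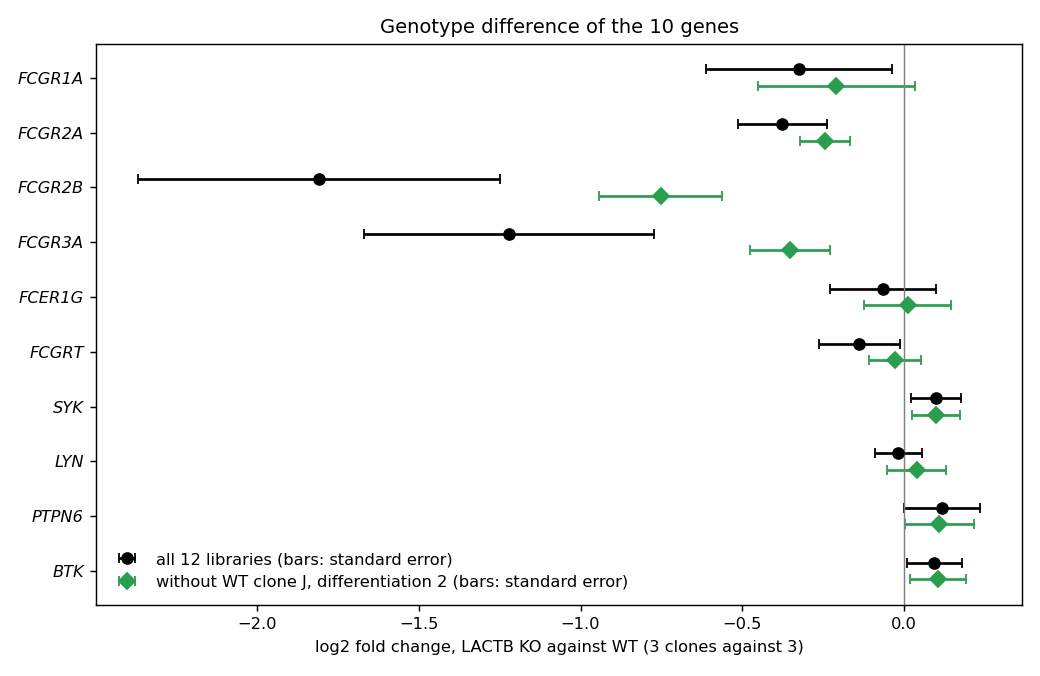
Fitted log2 fold change of LACTB KO against WT for the 10 genes (horizontal axis), from 3 clones against 3 by edgeR, with all 12 libraries (black circles) and without J2 (green diamonds), bars showing 1 standard error. Without J2, clone J is J1 alone. FCGR2B moves from -1.81 to -0.75 and FCGR3A from -1.22 to -0.35, while SYK, LYN, PTPN6 and BTK stay between -0.02 and 0.12 in both fits.

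J2 stood apart for the receptors themselves. Over all genes that passed the filter on single libraries, J2 was the highest of the 12 libraries for 2698 of 15530. Among the 10 genes it was the highest for 6, namely the 4 Fcγ receptors, FCER1G and FCGRT. It was at least 1.2-fold above every other library for 5 of the 10 (all of these but FCGR1A, with 163 CPM in J2 and 136 CPM in B2), against 7.84% of the 15530 genes that passed the filter on single libraries. It was at least 2-fold above every other library for 2, FCGR2B (5.45-fold above K2) and FCGR3A (4.19-fold above L2), against 1.64% of genes. FCGR2C, which lies between FCGR3A and FCGR2B, had 3.72 CPM in J2, within the range of the other libraries, so that FCGR2B was 5.07 times FCGR2C per length in J2 and 0.252 to 0.669 times in the 11 others. PTPN6 was lowest in J2 (302 CPM), and SYK and BTK were near their lowest there (332 and 114 CPM). These low levels were not particular to J2. In J1, the other library of clone J, SYK and BTK were lowest (327 and 107 CPM), and PTPN6 had 312 CPM. Of 15 microglia and macrophage markers, 9 were also highest in J2, among them TMEM119, CD68 (1366 CPM, against at most 664 in the others) and TREM2 (407 CPM, against at most 263), whereas CSF1R was lowest there (1376 CPM). The part of these in the receptor levels was not tested.

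The IgE receptor went the other way in that library. FCER1A, the α chain of FcεRI, which pairs with the γ chain like FcγRI and FcγRIIIa, had 14.4 CPM in J2 and between 111 and 255 CPM in the 11 other libraries, a level 7.70-fold below the next lowest. J2 was at least 2-fold below every other library for 1.27% of the 15530 genes. FCER1A, FGR and FYN were singled out after their values were seen. FGR and FYN, both Src-family kinases, had 37.4 and 4.69 CPM in J2, 2.33-fold and 2.64-fold below the next lowest library, whereas LYN lay within the range of the others. MS4A2, the β chain of FcεRI on mast cells, had at most 1 count in any library, so FCER1A was measured in libraries with few or no counts of this partner and of the mast cell proteases.

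**Figure D4:**
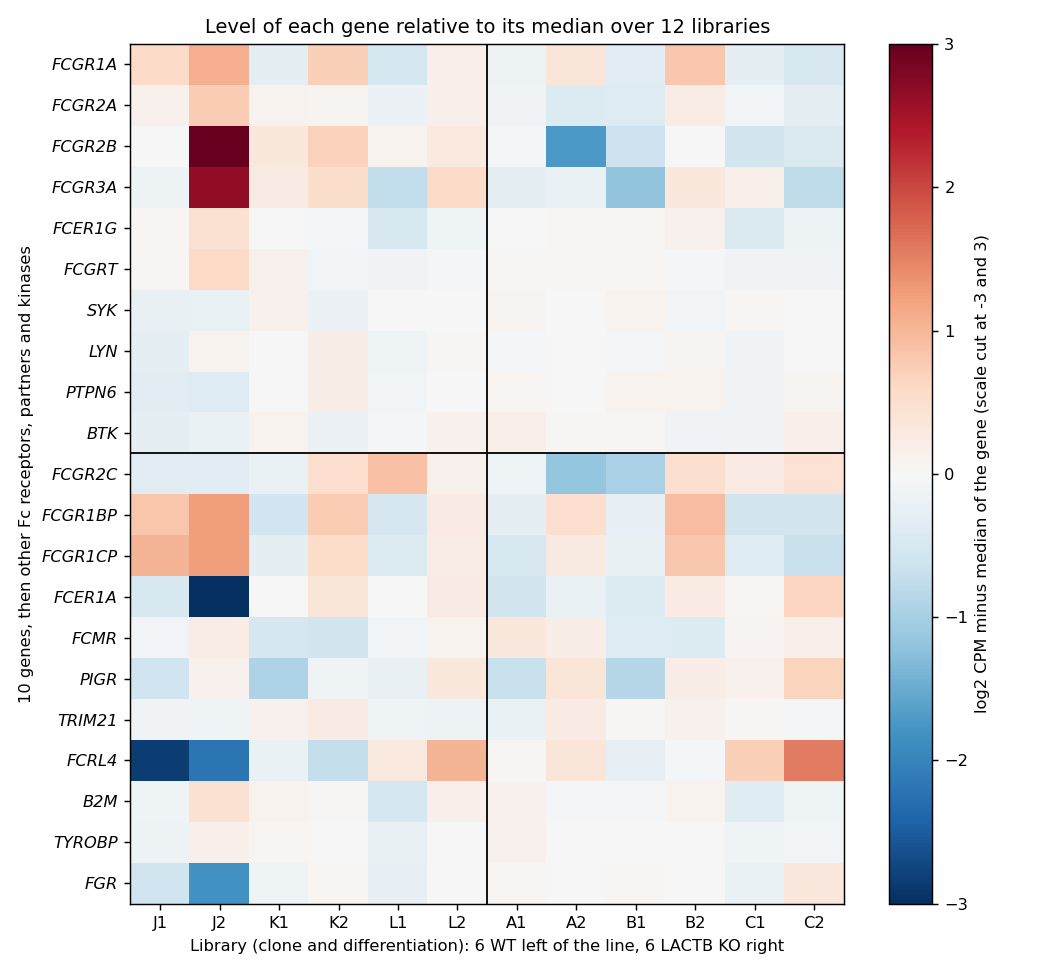
Level of each gene relative to its median over the 12 libraries (colour, log2 CPM minus the median, cut at -3 and 3), with 6 WT libraries left and 6 LACTB KO libraries right of the line, the 10 genes above and other Fc receptors, partners and kinases below the line. The column of J2 holds strong colours, high for FCGR2B and FCGR3A and low for FCER1A, FCRL4 and FGR. FCRL4 is low in J1 as well, while the rows of SYK, LYN, PTPN6 and BTK are pale.

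The comparison of the 2 differentiations within clones asks how far the levels depend on the run. FCGR1A was higher in differentiation 2 in 5 of 6 clones, by 0.50 (J), 1.01 (K), 0.69 (L), 0.52 (A) and 1.15 (B) on the log2 CPM scale, and it differed by -0.18 in clone C. Its log2 fold change of differentiation 2 against 1 was 0.61 (standard error 0.165, unadjusted p = 0.00627, edgeR adjusted p = 0.307), and the adjusted p ranged from 0.0141 with DESeq2 to 0.77 over 12 alternatives. LYN was higher in differentiation 2 in 6 of 6 clones, by 0.08 to 0.36 (log2 fold change 0.16, standard error 0.0573, unadjusted p = 0.021, adjusted p = 0.393), a pattern that 4.17% of the 15530 genes tested also had. FCER1G was higher in 5 of 6 clones (log2 fold change 0.16, standard error 0.068, unadjusted p = 0.0422, adjusted p = 0.477). An adjusted p under 0.05 was reached by 0 of the 10 genes and by 0% of all genes (edgeR), and an unadjusted p under 0.05 by these 3, against 9.95% of all genes.

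For FCGR3A the clones disagreed, with differences of 2.79 (J), 1.33 (L), 1.49 (B), 0.28 (K), 0.08 (A) and -0.89 (C) on the log2 CPM scale (log2 fold change 0.83, standard error 0.439, adjusted p = 0.599). For FCGR2B the difference was 3.10 in clone J, -1.62 in clone A, and between 0.11 and 0.60 in the remaining 4 clones (log2 fold change 0.43, standard error 0.518, adjusted p = 0.85). SYK was lower in differentiation 2 in 5 of 6 clones (log2 fold change -0.11, standard error 0.0569, adjusted p = 0.583).

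**Figure D5:**
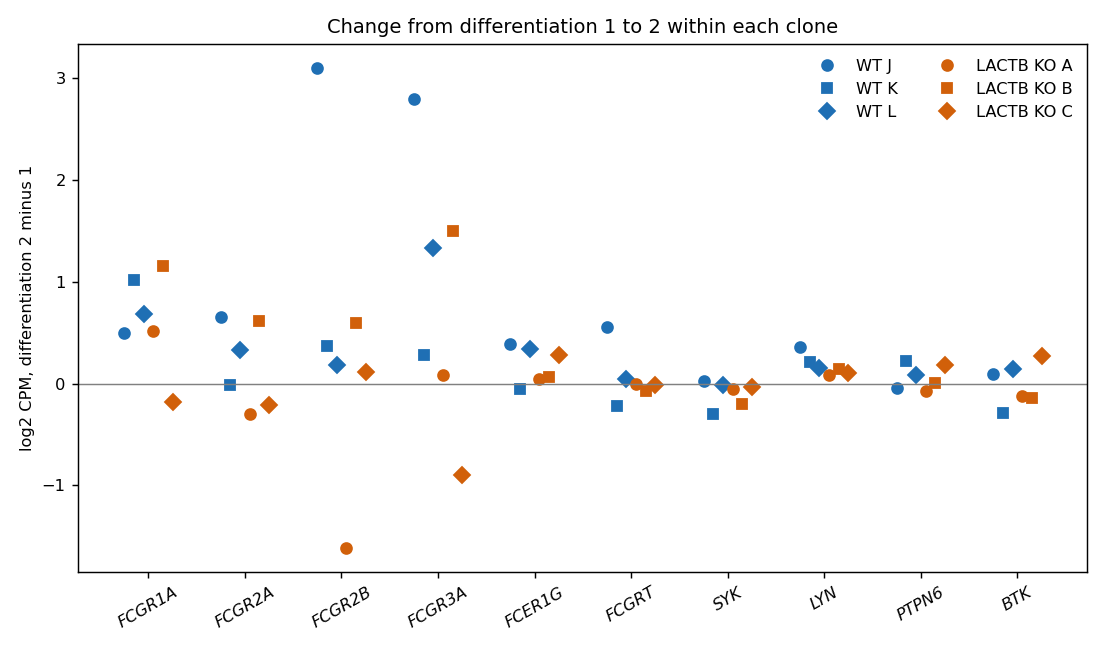
Difference in log2 CPM between differentiation 2 and differentiation 1 of the same clone (vertical axis) for the 10 genes, with 1 point per clone, WT blue and LACTB KO orange. The points of LYN all lie above 0, those of FCGR1A do so in 5 of 6 clones, and FCGR2B and FCGR3A span more than 2 log2 units.

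Whether the genotype difference was alike in both differentiations was tested by the interaction term, with a fixed term for each clone. After adjustment 0 of the 10 genes and 0% of all genes reached p under 0.05, and before adjustment 0 of the 10 and 0.908% of all genes did so (edgeR). FCGR2B and FCGR3A had the lowest values among the 10, -1.45 (standard error 0.952, adjusted p = 0.999) and -1.24 (standard error 0.796, adjusted p = 0.999), with wide errors. In differentiation 1 alone the log2 fold change of LACTB KO against WT was -0.56 for FCGR2B and -0.19 for FCGR3A, and in differentiation 2 alone it was -2.54 and -1.78, the larger values being those of the run that holds J2.

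The other genes of the pathway were described by lists of 116 entries, of which 102 were tested between genotypes. Of these, 71 had a higher and 31 a lower fitted level in LACTB KO (median 0.06 on the log2 scale), beside 9090 higher and 8487 lower of all 17577 genes (median 0.01). After adjustment 0 reached p under 0.05, and before adjustment 2 did, both lower, against 6.36% of all genes, or 5.56% in that direction. Among 20 other Fc receptors, 12 were tested, 8 higher and 4 lower. FCRLB, an intracellular relative of the Fc receptors, was one of the 2, with 0.885 to 3.09 CPM in WT and 0.571 to 0.993 CPM in LACTB KO (log2 fold change -0.98, standard error 0.285, unadjusted p = 0.0113, edgeR adjusted p = 0.726). Its highest value was that of J2, and the other WT libraries had 0.885 to 1.44 CPM. FCMR, which binds IgM, had 99.2 to 168 CPM in WT and 108 to 179 CPM in LACTB KO, and TRIM21, a cytosolic receptor for antibody, 48.9 to 64.7 CPM and 47.6 to 65.2 CPM. FCER2, FCAR and MS4A2 had at most 2 counts in every library.

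Among the ITAM adaptors, 3 of 3 were higher, HCST by a log2 value of 0.31 (edgeR adjusted p = 0.878) and CD247 by 0.29 (0.918), both at low levels, and TYROBP, the main adaptor of microglia, by 0.0019. Of 9 Src-family kinases and regulators tested, 7 were higher and 2 lower. FGR differed by 0.37 on the log2 scale (standard error 0.247, edgeR adjusted p = 0.878), in a WT group that includes its low value in J2, and CSK, which holds Src kinases inactive, by 0.10 (standard error 0.0821, adjusted p = 0.878). Of 28 genes of proximal SYK and BTK signaling, 16 were higher and 12 lower, led by PLCG1, a phospholipase, at -0.55 (standard error 0.273, adjusted p = 0.852) and PIK3CD, a PI3 kinase subunit of leukocytes, at 0.18 (standard error 0.105, adjusted p = 0.878). PLCG1 was highest in J2 (30.4 CPM).

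Of 24 genes of actin and the phagocytic cup, 21 were higher and 3 lower, with a median of 0.08. DOCK1, an activator of RAC1 in uptake, was the other gene with an unadjusted p under 0.05, with 6.74 to 25.0 CPM in WT and 3.84 to 7.72 CPM in LACTB KO (log2 fold change -1.13, standard error 0.343, unadjusted p = 0.0138, edgeR adjusted p = 0.726). It had 25.0 CPM in J2, 17.9 in J1 and 16.6 in K2, and 6.74 to 8.89 CPM in K1, L1 and L2. CORO1A, a leukocyte actin regulator, had 0.21 (standard error 0.105, adjusted p = 0.868). Of the 5 subunits of the phagocyte NADPH oxidase, which makes superoxide after Fc receptor engagement, 4 were higher and 1 lower, with NCF1 at 0.11 (adjusted p = 0.878). Of 20 inhibitory receptors and enzymes, 12 were higher and 8 lower, with DOK3 at -0.62 (standard error 0.305, adjusted p = 0.852) and LILRB3, at no more than 1.15 CPM, at -0.63 (adjusted p = 0.878). DOK3 (149 CPM) and LILRB3 were both highest in J2.

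Between differentiations, 16 genes of these lists had a higher and 7 a lower level with an unadjusted p under 0.05 among 100 tested, beside 942 higher and 604 lower of all 15530 genes (9.95% together), and 0 had an adjusted p under 0.05. PIGR, the receptor that carries IgA and IgM across epithelia, had the smallest p of them and was higher in differentiation 2 in 6 of 6 clones. It went from 149 to 243 CPM in clone J, 117 to 205 in K, 192 to 280 in L, 141 to 287 in A, 122 to 256 in B and 243 to 356 in C (log2 fold change 0.77, standard error 0.091, unadjusted p = 2.7e-05, edgeR adjusted p = 0.0906). FCGR1BP had 0.73 (unadjusted p = 0.00308), near the value of FCGR1A with which it shares stretches. NCF1, an oxidase subunit with close pseudogene copies, had 0.42 (unadjusted p = 0.00206). FYN, a Src-family kinase, had -0.63 (unadjusted p = 0.052). PIK3CG (0.23) and MAPK3 (0.17) led proximal signaling, DOCK1 (0.57) and RAC2 (0.32) the phagocytic cup, and the inhibitory receptor LAIR1 (0.25) and the ubiquitin ligase CBL (0.21) the inhibitory list, with adjusted p values from 0.322 to 0.388 (edgeR). B2M had 0.23, TYROBP 0.06 and HCST -0.28.

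For the interaction of genotype and differentiation, 0 of the 100 genes had an unadjusted p under 0.05. The genes with the smallest p were FCRLB (-0.89) and FCMR (-0.17) among the receptors, B2M (-0.33), TYROBP (-0.17) and HCST (0.06) among partners and adaptors, FYN (0.88) and LCK (1.00) among Src-family kinases, PLCG2 (0.34) and PLCG1 (-0.51) in proximal signaling, PAK1 (0.21) and ELMO1 (0.25) in the phagocytic cup, CYBA (-0.20) in the oxidase, and INPP5D (0.27) and CBL (0.22) in the inhibitory list, each as a log2 difference with an edgeR adjusted p of 0.999.

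Over the 12 libraries the level of the 10 genes together (the mean of their centred log2 CPM) was most like that of ATP6V1A, a subunit of the proton pump of lysosomes (Pearson r = 0.972, and 0.919 without J2), TMEM176B (0.966 and 0.898), MSR1, a scavenger receptor (0.961 and 0.866), SNX6, a sorting nexin (0.959 and 0.842), and C1QB, a chain of complement C1q (0.958 and 0.879). These are descriptions over 12 libraries of 6 clones that share the outlying J2, where MSR1 had 452 CPM against at most 111 elsewhere. The mean was not scaled by gene. FCGR2B and FCGR3A (SD of log2 CPM 1.12 and 0.969) therefore weighed more in it than SYK, LYN, PTPN6 and BTK (0.119 to 0.174). Among the 10 genes, FCGR2A went with FCGR3A (r = 0.92, and 0.80 without J2) and with FCGR2B (0.90 and 0.77), SYK went with BTK (0.81 and 0.78), and FCGR1A ran opposite to SYK (-0.80 and -0.74). FCER1G and FCGRT had r = 0.80, and 0.68 without J2. Other pairs were far weaker without J2. FCGR2B and FCGR3A had 0.83 and then 0.44. With FCGRT, FCGR2B had 0.75 and then -0.09, FCGR3A 0.75 and then -0.03, and FCGR2A 0.70 and then 0.06.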

How the data were processed

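Poly(A) RNA of 12 libraries from 6 clones was sequenced as paired reads of 150 bases (TruSeq v2, HiSeq2500). After adapter trimming (Cutadapt) and alignment to hg38 (STAR), the authors deposited 1 table of estimated counts, unscaled between libraries. The counting tool, its annotation and its strand setting are not given in the sources used here. As 10.8% to 11.5% of the entries of each library were fractions, these deposited expected counts were rounded, although whole counts had been planned for. Groups came from the sample labels.

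Counts were summed per clone, since the clone carries the edit, and 3 LACTB KO clones were compared with 3 WT clones in edgeR 4.0.16 (R 4.3.3) by the quasi-likelihood test with TMM, filterByExpr and Benjamini-Hochberg adjustment over 17577 genes (threshold 0.05). Differentiations and the interaction were tested on 12 libraries with clone as a fixed effect over 15530 genes. The study's mixed model (DREAM) was not used, and limma voom 3.58.1 with clone as a random effect stood nearest to it. DESeq2 1.42.0, other scalings, no filter, a replicate block, libraries or clones left out and summed near copies were alternatives, and the last, with the fit without J2, was chosen after seeing the data. Log2 CPM had a prior count of 2. Fits were run on counts simulated with 1 dispersion for all genes and no differences between clones. That run does not show how well they recover changes at the spread between clones seen here. Gene positions and lengths came from GENCODE 44 on GRCh38, in which 62639 of 62703 identifiers were found. The genes named are the 10 members, LACTB, per list the 2 genes with the smallest p in each comparison (none had an adjusted p under 0.05, and some are not reported here), and the 5 genes with the highest Pearson r. Other genes were named after their values were seen. Members, lists and rules were chosen with earlier results of these data known. No 2 libraries were alike, with at least 24715 genes that differed in any pair. The labels name the differentiation as the batch, which every clone shared and the clone sums balance, except where single libraries were left out. Over pairs of WT and LACTB KO libraries, deviations from the group means had a mean correlation of 0.0362 within a differentiation (18 pairs) and -0.0357 across them (18 pairs). At these depths counting error is small beside the spread between clones, except for genes with few counts.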

Additional observations from a re-analysis of the deposited data

Results flagged for a closer look

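For each of the 10 genes and each genotype, the library farthest from the other 5 was compared with Dixon's 95% critical value for 6 samples, 0.625 of the group's range. Of 20 groups tested, 4 exceeded it. Chance flags about 1 in 20 independent tests, but these groups share libraries, so their number cannot be set against that share. All 4 were the library of WT clone J, differentiation 2. It stood apart from the other WT libraries with 40.0 CPM of FCGR2B (gap 0.923 of the range), 240 CPM of FCGR3A (0.841), 154 CPM of FCGR2A (0.722) and 889 CPM of FCGRT (0.707). In the 6 LACTB KO libraries 0 of the 10 genes were flagged. These 4 values come from a single library, and what set it apart was not tested.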

How the results depend on the processing

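Over 18 alternatives to the comparison of genotypes, FCGR1A, FCGR2A, FCGR2B and FCGR3A kept a lower level and SYK and BTK a higher level in LACTB KO. Of the 10 genes, 0 had an adjusted p under 0.05 except FCGR2B with DESeq2 (1 gene), and in differentiation 2 against 1, 0 except FCGR1A with DESeq2 (1 gene). The cause of these and the following moves was not tested. Genes with an adjusted p under 0.05 between genotypes, 0 as reported, numbered 171 with DESeq2 and 2 with no filter. Those with an unadjusted p under 0.05, 1118 as reported, numbered 2039 with no filter, 607 with limma voom, 272 with the stromal covariate, 505 and 527 in differentiations 1 and 2 alone, and 453 without J1 and K2; the 10 genes held 0 of them, in place of 3, with the stromal covariate and in differentiation 1 alone, where only 3 libraries a group remained. Between differentiations, 271 genes had an adjusted p under 0.05 with DESeq2, 80 with no filter, 5 with limma voom and 22 without clones J and K, where 1 of the 10 genes in place of 3 had an unadjusted p under 0.05. For the interaction, 377 genes, 1 of the 10 among them, had an unadjusted p under 0.05 with no filter and 399 without clones J and K. Signs near 0 turned between genotypes for LYN (0.041) and B2M (0.070) in differentiation 1 alone, CD247 (-0.38) in differentiation 2 alone, and FCER1G (0.011), LYN (0.040) and B2M (0.012) without J2. Without clones J and K they turned between differentiations for FCGR2B (-0.15), FCGRT (-0.015) and BTK (0.033), and in the interaction for SYK (-0.070) and BTK (-0.13). Of the 5 most similar genes, 3 remained with Spearman in place of Pearson.

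With each clone left out in turn, genes with an adjusted p under 0.05 ranged from 0 to 1 between genotypes and from 0 to 48 (without J) between differentiations. The number with p under 0.05 before adjustment lay between 515 (without A) and 1986 (without L) between genotypes, where the 10 genes held 0 (without A) to 3, between 990 (without B) and 1835 between differentiations, where they held 1 (without B) to 3, and between 59 (without J) and 1204 (without K) for the interaction, where they held 0 to 2 (without B). Log2 fold changes between genotypes ranged over -2.15 to -0.85 for FCGR2B (the smaller without J), -1.53 to -0.46 for FCGR3A (the smaller without J), -0.19 to 0.092 for FCER1G, -0.23 to 0.00024 for FCGRT, -0.049 to 0.037 for LYN, -0.00070 to 0.22 for PTPN6 and -0.059 to 0.74 for CD247. Between differentiations they ranged over -0.036 to 0.83 for FCGR2B, -0.052 to 0.078 for FCGRT and -0.072 to 0.025 for BTK, and for the interaction over -0.57 to 0.13 for FCGR1A, -0.29 to 0.056 for FCGRT, -0.061 to 0.060 for SYK, -0.12 to 0.058 for PTPN6 and -0.090 to 0.093 for BTK.

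With the differentiation number as replicate block on 12 libraries, FCGR2B had a log2 fold change of -1.55 (edgeR adjusted p = 0.694), 0 genes had an adjusted p under 0.05, and the block changed no call; before adjustment 2 of the 10 genes in place of 3 had p under 0.05. With 3 clones a group and a single library per clone and run, differences of the size seen for SYK, LYN, PTPN6 and BTK lay within the spread, which does not show that they were equal. FCGR2B rested on as few as 37 counts in a library.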

Other observations

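Relatives of the Fc receptors that are known mainly from B cells were also measured. FCRL4 had 2.51 and 3.90 CPM in the libraries of WT clone J and at least 10.99 and at most 52.7 CPM in the other 10 libraries, and FCRL1 had 0.553 and 0.446 CPM in clone J and between 0.838 and 11.7 CPM elsewhere. KIT, the receptor for stem cell factor, had 3.39 and 1.71 CPM in clone J and between 12.2 and 27.7 CPM elsewhere. Between genotypes the log2 fold change was 0.78 for FCRL4 (edgeR adjusted p = 0.879), 0.90 for FCRL1 (0.883) and 0.40 for KIT (0.918). These genes were singled out after their values were seen, and the difference of clone J from the other clones was not tested.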
